A study of Mus musculus with 70 samples.

Results

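Mycn was compared as a dividing line within one model of Sonic hedgehog (SHH) medulloblastoma, a tumour of the developing cerebellum. Of 70 mouse tumours with bulk RNA-seq, 60 came from the Lazy Piggy model and 59 of those carried a tamoxifen label. They were chosen by their Mycn level in CPM, the count per 1e6 counts of the library, ranked separately among the 29 tamoxifen tumours and the 30 tumours without tamoxifen. The top 10 of each treatment make the 20 Mycn-high tumours, and the bottom 10 of each make the 20 Mycn-low tumours. The 19 tumours ranked between them, and 10 Math1-Cre; SmoM2 tumours of the same series, took no part in the main comparison and are used below as separate libraries. The SmoM2 tumours comprise 3 labelled Kcnb2 knockout and 7 labelled Kcnb2 wild-type. Mycn chose the groups, so its own values are given as a description and it was left out of every test.

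All 59 tumours carry the same genotype label, which joins ptch1, a transposon named lazy_piggy, a SB100 transposase (nestin_luc_sb100), nestin_cre, and a piggyBac transposase at Rosa26 that Cre releases (rosa26_lsl_pbert2). Nestin thus drives both the SB100 construct and Cre, and the treatment label is TAM+ or TAM-. The labels do not state the age of the mice or whether 2 tumours came from the same mouse, so p-values measure the spread between libraries. Bulk tumour RNA also holds RNA of whatever cerebellum was taken with the tumour, and fewer cells of a type and less RNA per cell cannot be told apart.

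MYCN is a basic helix-loop-helix transcription factor that binds DNA with its partner MAX at E-boxes. In granule neuron progenitors, the cells from which SHH medulloblastoma arises, Hedgehog signalling raises Mycn, and MYCN keeps the progenitors in cycle. MYC proteins are known to raise genes of ribosome biogenesis, nucleotide synthesis and the cell cycle, and loss of MYCN accompanies the exit of progenitors into granule neuron differentiation.

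Mycn (ENSMUSG00000037169) ranged from 358 to 506 CPM with a median of 429 in the 20 Mycn-high tumours, against 46.8 to 335 CPM with a median of 287 in the 20 Mycn-low tumours. The 19 middle tumours had 316 to 402 CPM. Within tamoxifen tumours the Mycn-high group spanned 358 to 450 CPM (median 397), against 46.8 to 315 CPM (median 275) in the Mycn-low group. Without tamoxifen, the Mycn-high group spanned 409 to 506 CPM (median 439), against 211 to 335 CPM (median 325) in the Mycn-low group. At the upper limit the last tumour inside had 358 CPM and the first outside 353 CPM among tamoxifen tumours, and 409 and 402 CPM without tamoxifen. At the lower limit the last tumour inside had 315 CPM and the first outside 316 CPM among tamoxifen tumours, and 335 and 351 CPM without tamoxifen. The groups are therefore slices of a continuous range, and the lower limit among tamoxifen tumours falls in no gap. A Mycn-low tumour without tamoxifen can exceed a middle tumour with it.

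**Figure D1:**
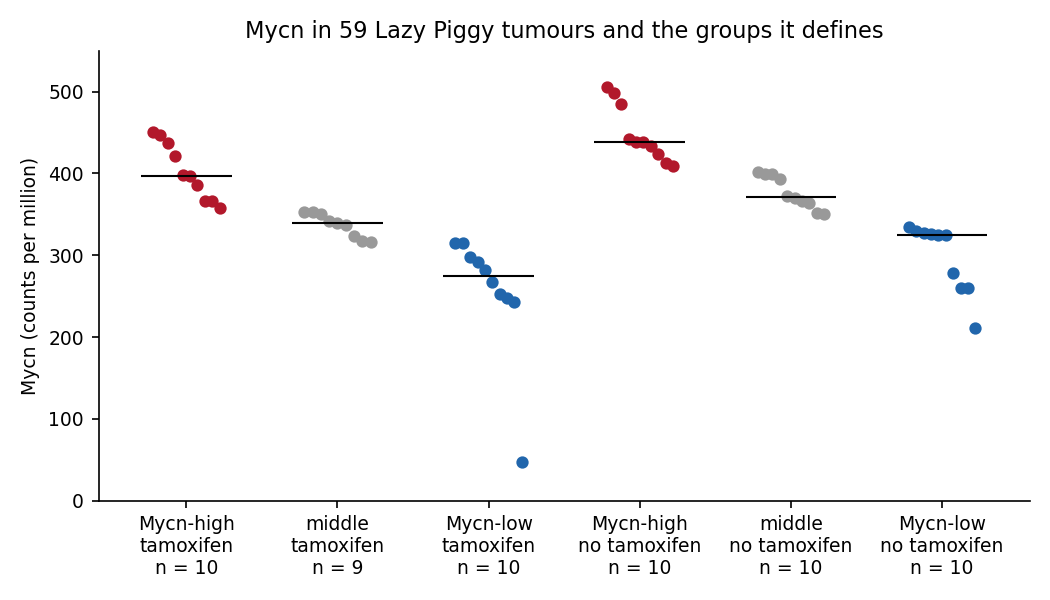
Mycn in CPM (y axis) for each of the 59 labelled Lazy Piggy tumours, split by treatment and by rank group (x axis); points are tumours and lines are medians. The Mycn-high tumours sit between 358 and 506 CPM, and tamoxifen replicate 14 stands alone at 46.8 CPM.

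Library totals of the 40 tumours ran from 5869618 to 8667344 counts. Males made up 9 of 20 Mycn-high and 14 of 20 Mycn-low tumours (two-sided Fisher's exact test, p = 0.200), and 3 of 10 Mycn-high against 8 of 10 Mycn-low among tamoxifen tumours (p = 0.0698). Mean totals were 7510785 counts in Mycn-high and 7397672 in Mycn-low tumours (permutation test, p = 0.596). Reads from the transposon construct averaged 21.6 CPM in Mycn-high and 5.41 CPM in Mycn-low tumours, with medians of 3.86 and 3.84 CPM (permutation test, p = 0.0933). The label of SHH medulloblastoma was checked on 4 genes. Median CPM in Mycn-high and Mycn-low tumours was 288 and 212 for Gli1, 285 and 200 for Atoh1, 1317 and 1327 for Zic1, and 433 and 377 for Barhl1, so none of these markers is missing from either group.

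2 Mycn-low libraries stand apart from the rest. Tamoxifen replicate 14 had the lowest Mycn, at 46.8 CPM, the highest level of oligodendrocyte, Purkinje cell and late granule neuron genes, and the lowest level of DNA replication genes. No tamoxifen replicate 16, with 211 CPM of Mycn, had a late granule neuron level of 8.14 on the mean log2 CPM scale while its oligodendrocyte level was 1.89 and its Purkinje level 0.88. Where such a fit was run, results that rest on either library are given with and without it.

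In Mycn-high tumours 17 of 30 DNA replication genes were higher, and so were fewer members of the G1/S (8 of 24), mitosis (9 of 30), Hedgehog (7 of 21) and MYC metabolic (8 of 38) lists. Lower in Mycn-high tumours were 18 of 20 late granule neuron, 11 of 11 Purkinje cell, 10 of 10 interneuron, 11 of 13 astrocyte and 10 of 11 oligodendrocyte genes, with list medians of -2.05, -2.95, -2.34, -0.89 and -1.27 on the log2 scale. Of 13979 genes tested, 934 (6.68%) were higher and 1766 (12.6%) were lower in Mycn-high tumours (edgeR quasi-likelihood test with treatment as covariate, Benjamini-Hochberg adjusted p under 0.05). The median log2 fold change over all genes was 0.01. Scaling by library totals alone gave 462 higher and 1904 lower, and without tamoxifen replicate 14 the counts were 657 higher and 1488 lower. With sex as a further covariate 716 genes (5.12%) were higher and 1628 (11.6%) lower. Among tamoxifen tumours alone, 10 against 10, 20 genes (0.146%) were higher and 138 (1.01%) lower, and without tamoxifen 11 (0.0819%) were higher and 143 (1.06%) lower.

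The lower genes were led by markers of normal cerebellum, and these set apart most, not all, Mycn-low tumours. The oligodendrocyte level, the mean log2 CPM of 11 myelin and oligodendrocyte genes, ran from 1.42 to 5.97 (median 2.12) in Mycn-high tumours, against 1.89 to 7.13 (median 4.13) in Mycn-low tumours. No tumour lay between 3.05 and 3.75. Over that gap lay 4 Mycn-high and 14 Mycn-low tumours, and under it 16 Mycn-high and 6 Mycn-low tumours. With this level as a covariate, 1 gene (0.00715%) was higher and 24 genes (0.172%) were lower in Mycn-high tumours (edgeR quasi-likelihood test). All 934 higher genes kept a positive fold change in that fit, and 1673 of the 1766 lower genes a negative one. Among all 13979 genes 6972 were positive there and 7007 negative. The called genes were chosen by their sign in the same 40 tumours, so keeping it is no separate support. Without the 5 tumours of highest level 379 genes (2.7%) were higher and 936 (6.66%) lower, and without all 18 over the gap 0 were higher and 3 (0.021%) lower. The part of this level in the differences below was not tested, and medians are given with and without it as covariate.

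**Figure D2:**
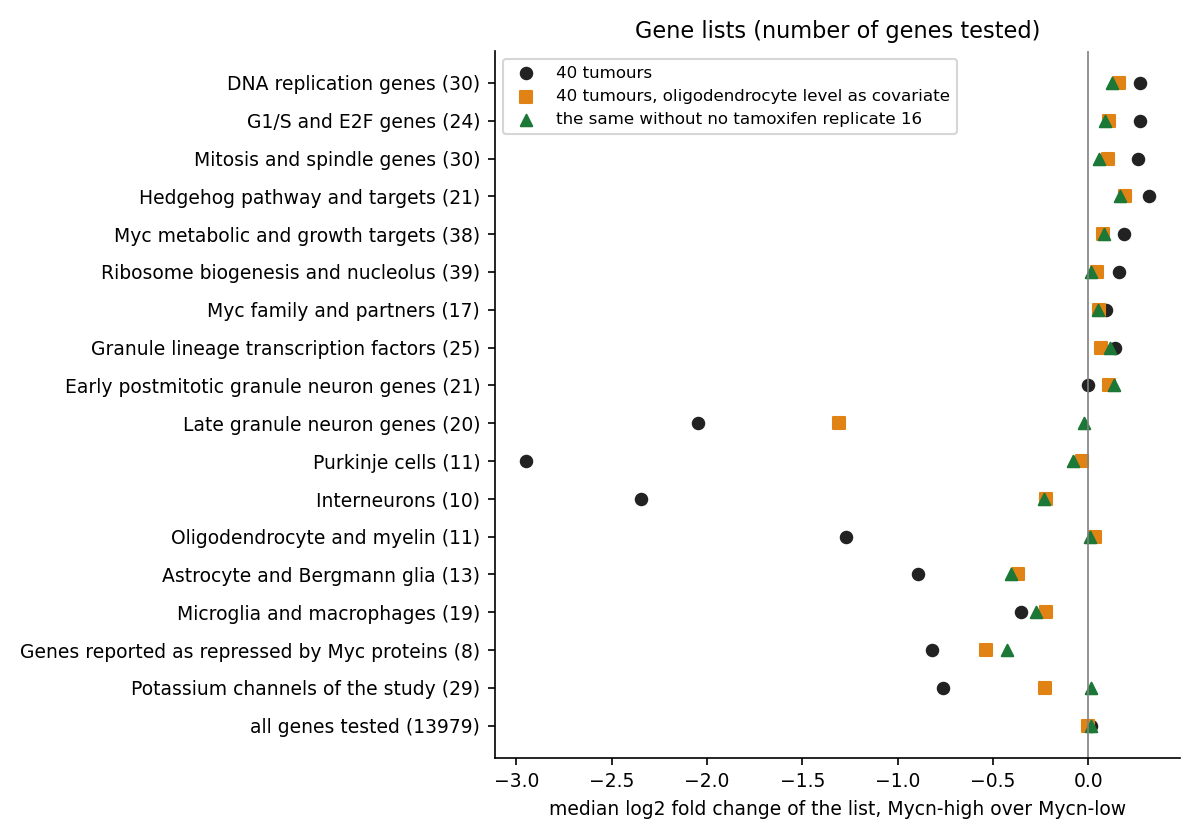
Median log2 fold change, Mycn-high over Mycn-low (x axis), of each gene list (y axis, number of genes tested in brackets) in 40 tumours, with the oligodendrocyte level as covariate, and with that covariate in the 39 tumours other than no tamoxifen replicate 16. Replication genes stay right of 0 in the 3 fits, while the Purkinje median of -2.95 comes to lie near 0 once the level is held. The oligodendrocyte median of -1.27 does so too, but those genes make up the level, which fixes that outcome in advance.

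DNA replication genes were the group with the most calls among those that were higher. Of 30 tested, 17 (56.7%) were higher and 0 lower, beside 6.68% of all genes, and 30 of 30 fold changes were positive with a median of 0.27. Without tamoxifen replicate 26 the count was 11. Pcna, the sliding clamp of DNA polymerase, ranged from 278 to 579 CPM (median 362) in Mycn-high tumours, against 132 to 389 CPM (median 300) in Mycn-low tumours. Its log2 fold change was 0.35 ± 0.09 (SE, n = 20 each; edgeR adjusted p = 0.00730). Of the Mycn-high tumours 19 of 20 exceeded the Mycn-low median and 5 exceeded every Mycn-low tumour, so the groups overlap broadly. Mcm5, a subunit of the replicative helicase, ranged from 212 to 331 CPM (median 269) in Mycn-high tumours, against 85.5 to 290 CPM (median 236) in Mycn-low tumours (log2 fold change 0.32 ± 0.09, edgeR adjusted p = 0.00822). Prim1, a primase subunit, and Fen1, the flap endonuclease, were higher by 0.28 ± 0.08 and 0.30 ± 0.08. The list's median was 0.36 within tamoxifen tumours and 0.18 without tamoxifen. With the oligodendrocyte level held it was 0.16, with 28 of 30 positive, and no single gene of the list passed the test.

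Genes of the G1/S transition and of mitosis followed. Of 24 G1/S and E2F genes 8 were higher and 0 lower (median 0.27), and of 30 mitosis genes 9 were higher and 0 lower (median 0.26), beside 6.68% higher and 12.6% lower among all genes. The G1/S count was 5 without tamoxifen replicate 26 or no tamoxifen replicate 11, and 13 without no tamoxifen replicate 21. E2f2, an activator of replication genes, ranged from 44.6 to 84.8 CPM (median 56.5) in Mycn-high tumours, against 10.8 to 56.1 CPM (median 45.0) in Mycn-low tumours. Its log2 fold change was 0.43 ± 0.11 (edgeR adjusted p = 0.00468), and 11 of 20 Mycn-high tumours lay above every Mycn-low tumour. Cdt1, which loads the helicase onto origins, had 74.3 to 153 CPM (median 96.3) in Mycn-high tumours, against 24.0 to 101 CPM (median 80.3) in Mycn-low tumours (log2 fold change 0.40 ± 0.10, edgeR adjusted p = 0.00418). Tyms, thymidylate synthase, rose by 0.40 ± 0.11, and the mitotic kinase gene Cdk1 by 0.38 ± 0.12. With the oligodendrocyte level held, the medians were 0.11 for both lists. Among 7 Cdk inhibitors only Cdkn1b, encoding p27, was called, and it was higher by 0.21 ± 0.07 (edgeR adjusted p = 0.0213). Among 18 p53 targets only Mdm2 was called, higher by 0.17 ± 0.06, a call lost in 16 of the 40 fits that leave out 1 tumour.

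**Figure D3:**
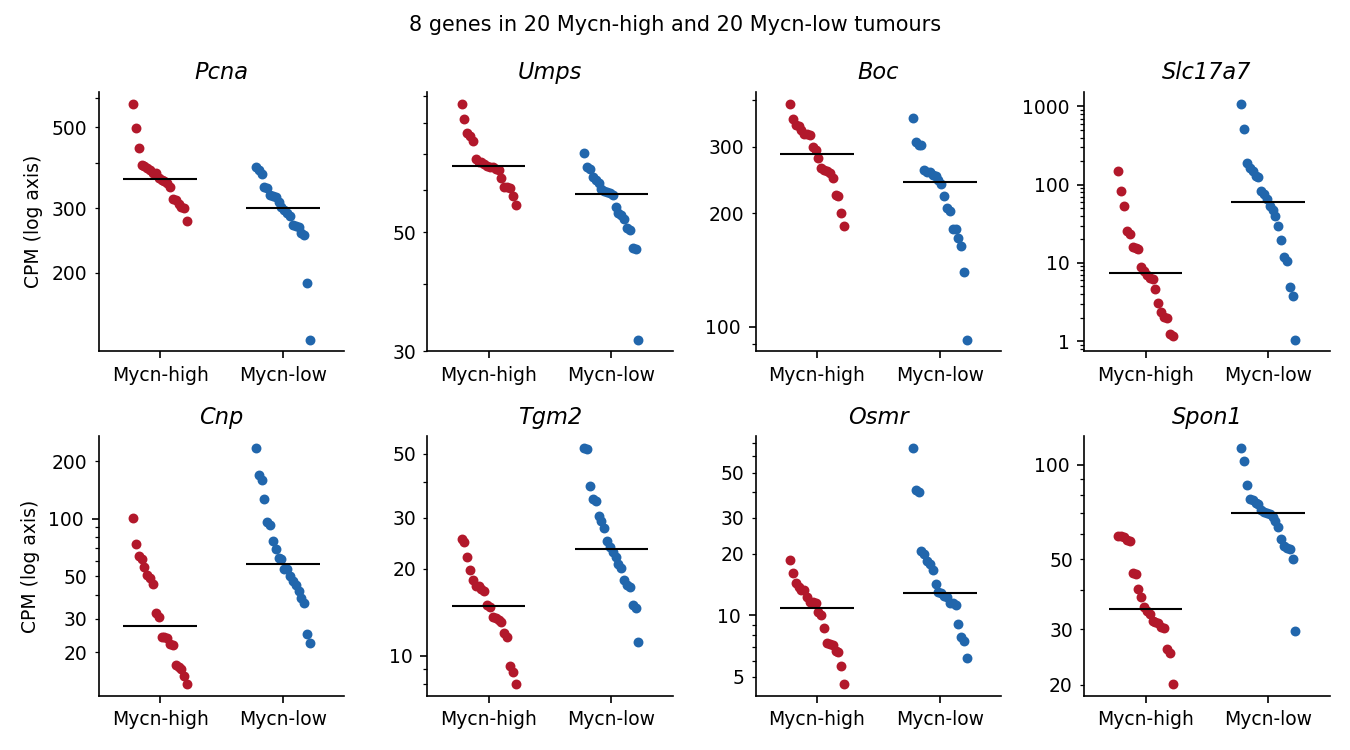
CPM on a log axis (y axis) of 8 genes in each of 20 Mycn-high and 20 Mycn-low tumours (x axis); points are tumours and lines are medians. Pcna, Umps and Boc have higher medians in Mycn-high tumours with wide overlap, whereas Slc17a7 and Cnp have lower medians there and Slc17a7 spreads widely within each group.

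Hedgehog genes were partly higher. Of 21 tested, 7 were higher and 1 lower, beside 6.68% and 12.6% of all genes, with a median of 0.32 and 16 of 21 fold changes positive. Boc, which encodes a co-receptor for the ligand, ranged from 184 to 390 CPM (median 287) in Mycn-high tumours, against 92.4 to 356 CPM (median 241) in Mycn-low tumours. Its log2 fold change was 0.35 ± 0.10 (edgeR adjusted p = 0.0164), and 16 of 20 Mycn-high tumours exceeded the Mycn-low median. The co-receptor gene Gas1 rose by 0.39 ± 0.14, the inhibitor gene Sufu by 0.32 ± 0.11, and the transcription factor gene Gli2 by 0.33 ± 0.12. Pdgfra and the cyclin gene Ccnd2 rose by 0.44 ± 0.14 and 0.34 ± 0.12. Gli1, the usual readout of the pathway, ranged from 142 to 415 CPM (median 288) in Mycn-high tumours, against 68.5 to 368 CPM (median 212) in Mycn-low tumours, and its difference of 0.40 ± 0.16 did not pass (edgeR adjusted p = 0.0713). Ptch1, the receptor altered in this model, differed by -0.21 ± 0.17 (edgeR adjusted p = 0.408). Hsd11b1, which activates glucocorticoids, was lower by 1.55 ± 0.38 on the log2 scale.

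The Hedgehog calls were fragile. The number of genes called higher ranged from 3 to 10 when each tumour was left out. It was 3 without tamoxifen replicate 4, 14, 15, 19 or 26 or no tamoxifen replicate 12 or 16, and 4 without tamoxifen replicate 5, 17, 21, 22 or 23 or no tamoxifen replicate 6, 11, 13 or 25. The list's median was 0.47 within tamoxifen tumours and 0.09 without tamoxifen, and 0.19 with the oligodendrocyte level held. A test of the interaction with treatment called 0 of 13979 genes (edgeR quasi-likelihood test, 1006 at an unadjusted p under 0.05; DESeq2 called 0, with 1085), so no gene was shown to differ in its Mycn-high minus Mycn-low change between treatments.

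Nucleotide synthesis and growth genes reported as targets of MYC proteins held fewer calls. Of 38 tested, 8 (21.1%) were higher and 0 lower, beside 6.68% and 12.6% of all genes, with a median of 0.19 and 36 of 38 positive. Umps, which makes uridine monophosphate, ranged from 56.2 to 86.9 CPM (median 66.5) in Mycn-high tumours, against 31.5 to 70.3 CPM (median 59) in Mycn-low tumours. Its log2 fold change was 0.29 ± 0.06 (edgeR adjusted p = 0.00147), and 18 of 20 Mycn-high tumours exceeded the Mycn-low median. Shmt1, of one-carbon metabolism, had 58.1 to 92.9 CPM (median 74.3) in Mycn-high tumours, against 24.7 to 76.8 CPM (median 63.8) in Mycn-low tumours (0.35 ± 0.08, edgeR adjusted p = 0.00233). The purine genes Ppat, Paics and Pfas rose by 0.35 ± 0.10, 0.20 ± 0.06 and 0.22 ± 0.08, and the glutamine transporter gene Slc1a5 by 0.42 ± 0.13. Impdh2, the enzyme that commits purines to guanine nucleotides, ranged from 140 to 338 CPM (median 220) in Mycn-high tumours, against 73.9 to 240 CPM (median 182) in Mycn-low tumours (0.33 ± 0.10, edgeR adjusted p = 0.0170). Ldha, lactate dehydrogenase, ranged from 200 to 568 CPM (median 258) in Mycn-high tumours, against 142 to 286 CPM (median 228) in Mycn-low tumours (0.30 ± 0.10, edgeR adjusted p = 0.0249). Odc1 and Ncl, 2 classical MYC targets, did not pass, with log2 fold changes of 0.01 ± 0.11 and 0.11 ± 0.08. Of 39 ribosome biogenesis genes, 7 were higher and 0 lower (median 0.16), led by Pa2g4 (0.22 ± 0.06) and the RNA polymerase I subunit gene Polr1b (0.40 ± 0.12), and 4 were higher without tamoxifen replicate 14. With the oligodendrocyte level held, the medians were 0.08 for the metabolic and 0.05 for the ribosome list, and no gene of either passed.

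MYC proteins and MAX bind the E-box CACGTG, and 2 of the called metabolic genes hold it near their start. The windows below, from RefSeq with build GRCm38.p6, run from 250 bases before to 50 bases after the gene's start, on the plus strand, with the E-box in capitals. They show where the motif lies in genes that were higher, at chr9:108560186-108560485 for Impdh2 (1 E-box) and chr7:46845554-46845853 for Ldha (2 E-boxes). A match is no evidence of binding.
Impdh2: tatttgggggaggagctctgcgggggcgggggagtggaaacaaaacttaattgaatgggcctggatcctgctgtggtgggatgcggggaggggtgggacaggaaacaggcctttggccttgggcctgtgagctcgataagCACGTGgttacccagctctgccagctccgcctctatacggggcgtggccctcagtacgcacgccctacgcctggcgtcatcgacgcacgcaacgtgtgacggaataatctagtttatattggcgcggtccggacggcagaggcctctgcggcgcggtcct
Ldha: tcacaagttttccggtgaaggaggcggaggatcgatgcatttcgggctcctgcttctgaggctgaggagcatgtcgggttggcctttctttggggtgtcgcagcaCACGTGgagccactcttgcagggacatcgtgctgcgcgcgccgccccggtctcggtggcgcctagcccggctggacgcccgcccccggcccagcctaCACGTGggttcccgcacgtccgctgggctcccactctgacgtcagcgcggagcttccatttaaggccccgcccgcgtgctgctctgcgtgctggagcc
CACGTG, a palindrome that reads the same on both strands, stood in 13.2% of 725 promoters of genes called higher, 12.4% of 1343 promoters of genes called lower and 11.7% of 10381 promoters of all genes tested. Under 80% of the called genes had an entry in the promoter table (725 of 934 higher and 1343 of 1766 lower), which voids the comparison between these shares. Of all 32851 windows of the table, 7.15% held the motif.

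Few partners of MYCN were called. Of 17 tested members of the MYC network, 0 were higher and 1 was lower (median 0.09), beside 6.68% and 12.6% of all genes, and the count of higher members was 1 without tamoxifen replicate 5, 13 or 29 or no tamoxifen replicate 8. Myc ranged from 35.7 to 82.4 CPM (median 58.2) in Mycn-high tumours, against 9.89 to 70.9 CPM (median 48.7) in Mycn-low tumours, a difference of 0.31 ± 0.13 that did not pass (edgeR adjusted p = 0.0953). Mycl differed by 0.34 ± 0.14 (adjusted p = 0.0872), and Max, the obligate partner, by 0.08 ± 0.06 (adjusted p = 0.321). The antagonist genes Mxd1, Mxd3, Mxd4, Mxi1, Mnt and Mga had log2 fold changes of 0.08, 0.42, 0.05, 0.15, 0.13 and 0.12, none past the threshold, and so had Mlx (0.07) and Mlxip (0.05). Aurka, which shields MYCN from degradation, differed by 0.27 ± 0.12 (adjusted p = 0.109), Huwe1 by 0.12, Usp7 by 0.09, Zbtb17 by 0.09 and Trim32 by -0.06. Fbxw7, the substrate receptor that marks MYC proteins for degradation, ranged from 39.6 to 70.1 CPM (median 47.2) in Mycn-high tumours, against 35.0 to 154 CPM (median 60.2) in Mycn-low tumours. It fell by 0.42 ± 0.12 (edgeR adjusted p = 0.0153), and the difference was -0.10 with the oligodendrocyte level held and 0.07 with that level held in the 39 tumours other than no tamoxifen replicate 16. Leaving out 1 tumour at a time, with no such covariate, kept it between -0.47 and -0.30.

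Neighbours of Mycn on chromosome 12 did not rise with it as a block. Ddx1, the next coding gene on one side, had 200 to 276 CPM (median 242) in Mycn-high tumours, against 178 to 275 CPM (median 237) in Mycn-low tumours (0.06 ± 0.05, edgeR adjusted p = 0.469). Fam49a, the next on the other side, differed by -0.10 ± 0.12 (adjusted p = 0.565), and Nbas, beyond Ddx1, by -0.13 ± 0.08 (adjusted p = 0.240). Further out, Smc6, Gen1, Rdh14 and Lpin1 differed by 0.11, 0.22, -0.27 and -0.06, none past the threshold. Trib2, 4 coding genes away, rose by 0.33 ± 0.10 (edgeR adjusted p = 0.0178). Vsnl1, 3 coding genes away on the other side and a gene of mature neurons, fell by 3.26 ± 0.67 (adjusted p = 0.00128), with the other genes of such neurons described next.

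Genes of mature cerebellar neurons had the largest differences. All 11 Purkinje cell genes tested were lower in Mycn-high tumours (median -2.95), as were 10 of 10 interneuron genes (median -2.34) and 18 of 20 late granule neuron genes (median -2.05), beside 12.6% of all genes. Calb1, the calcium buffer of Purkinje cells, ranged from 0 to 140 CPM (median 2.32) in Mycn-high tumours, against 0.132 to 1254 CPM (median 70.9) in Mycn-low tumours. Its log2 fold change was -3.30 ± 0.75 (edgeR adjusted p = 0.00234), and the groups overlap over most of their range. Gad1, which makes the transmitter GABA, ranged from 0.170 to 101 CPM (median 3.39) in Mycn-high tumours, against 0.132 to 727 CPM (median 62.6) in Mycn-low tumours (-2.91 ± 0.62, edgeR adjusted p = 0.00149). Slc17a7, the vesicular glutamate transporter of granule neurons, ranged from 1.18 to 150 CPM (median 7.46) in Mycn-high tumours, against 1.04 to 1082 CPM (median 59.4) in Mycn-low tumours (-3.03 ± 0.69, edgeR adjusted p = 0.00225). The synaptic genes Nrxn3, Chn2 and Snap25 fell by 2.31 ± 0.42, 2.87 ± 0.58 and 1.64 ± 0.35. With the oligodendrocyte level held the medians were -0.03 for Purkinje cells and -0.22 for interneurons.

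The late granule genes behaved otherwise, and that rests on 1 library. Their median was still -1.31 with the oligodendrocyte level held in 40 tumours, and -0.02 with it held in the 39 tumours other than no tamoxifen replicate 16, where 8 of 20 were positive. That Mycn-low tumour had 1082 CPM of Slc17a7, 193 CPM of Gabra6, a receptor subunit of mature granule neurons, and 481 CPM of Cbln3, their secreted synapse organizer. The other 5 Mycn-low tumours of low oligodendrocyte level had 1.04 to 12.0 CPM of Slc17a7, 0 to 10.4 CPM of Gabra6 and 0.799 to 29.2 CPM of Cbln3. Yet no tamoxifen replicate 16 had only 0.132 CPM of Calb1 and 0.132 CPM of Gad1. In 16 Mycn-high and 5 Mycn-low tumours of low oligodendrocyte level, this tumour left out, the late granule median was 0.05, with 11 of 20 positive. Earlier steps of the lineage differed less. Of 21 early postmitotic granule neuron genes only Dpysl5 was called (4.76%, beside 6.68% higher among all genes). It was higher by 0.44 ± 0.16, a call lost in 20 of the 40 fits that leave out 1 tumour. The list's median of 0.00 in 40 tumours joins 2 directions. It was -0.18 within tamoxifen tumours, with 5 of 21 positive, and 0.26 without tamoxifen, with 19 of 21 positive. No gene of the list passed in either treatment alone. Neurod1 had a log2 fold change of 0.00 ± 0.18 in 40 tumours.

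**Figure D4:**
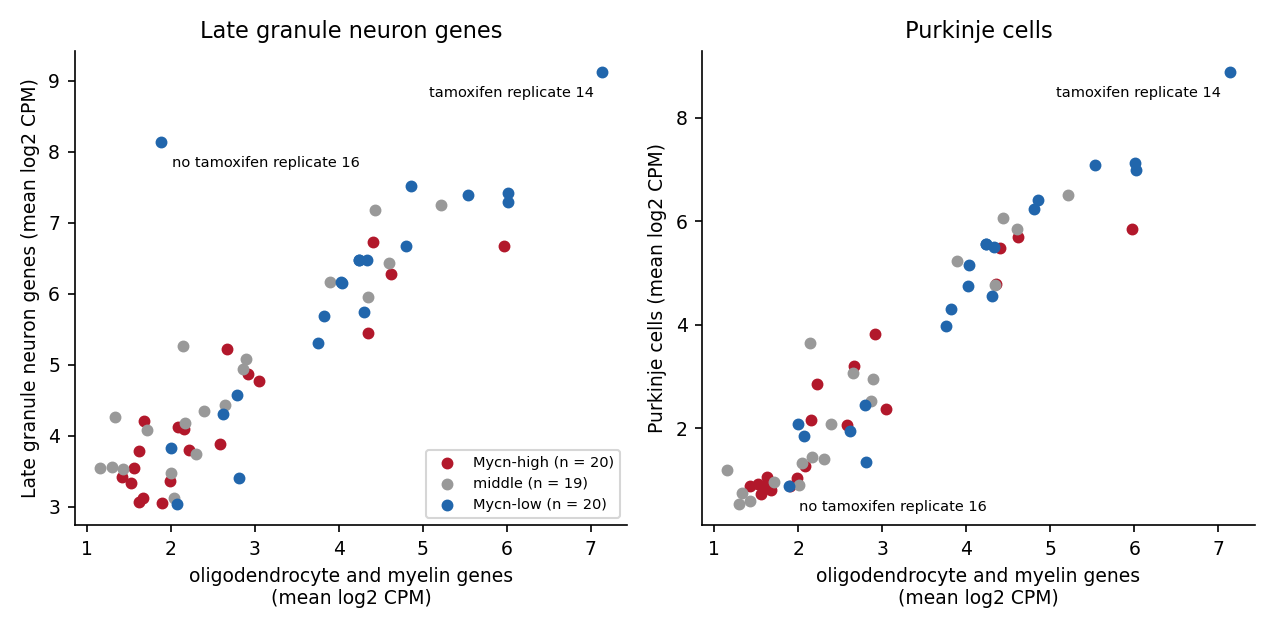
Mean log2 CPM of late granule neuron genes (left) and Purkinje cell genes (right) on the y axis against that of oligodendrocyte and myelin genes on the x axis, for 20 Mycn-high, 19 middle and 20 Mycn-low tumours. Most points lie on a common rise, and no tamoxifen replicate 16, at an oligodendrocyte level of 1.89, lies at 8.14 for late granule genes and at 0.88 for Purkinje genes.

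Transcription factors and progenitor genes of the granule lineage were divided. Of 25 lineage factors 5 (20.0%) were higher and 1 (4.0%) lower (median 0.14), beside 6.68% and 12.6% of all genes. Insm1, a zinc finger factor of dividing and newly differentiating neuron precursors, ranged from 561 to 1158 CPM (median 719) in Mycn-high tumours, against 248 to 879 CPM (median 575) in Mycn-low tumours (0.38 ± 0.10, edgeR adjusted p = 0.00864). Meis1, Barhl2, Nfib and Uncx rose by 0.24 to 0.47, while Etv1, an ETS factor of maturing granule neurons, fell by 1.17 ± 0.25. Its fold change was -0.07 without no tamoxifen replicate 16 and with the oligodendrocyte level held. Atoh1, which keeps progenitors in the progenitor state, ranged from 118 to 434 CPM (median 285) in Mycn-high tumours, against 28.8 to 358 CPM (median 200) in Mycn-low tumours, and its difference of 0.52 ± 0.21 did not pass (edgeR adjusted p = 0.0708). Of 18 stem and progenitor genes Msi1, Cd24a and Bmi1 were higher (16.7%) and 0 were lower (median -0.02). Bmi1 lost its call in 13 of the 40 fits that leave out 1 tumour. Msi1, an RNA-binding protein of neural progenitors, ranged from 139 to 245 CPM (median 169) in Mycn-high tumours, against 62.9 to 192 CPM (median 142) in Mycn-low tumours (0.38 ± 0.08, edgeR adjusted p = 0.00135).

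Of 11 oligodendrocyte genes 10 were lower (median -1.27), beside 12.6% of all genes. Of 13 astrocyte and Bergmann glia genes 11 were lower (median -0.89). Cnp, an enzyme of myelinating oligodendrocytes, ranged from 13.7 to 101 CPM (median 27.5) in Mycn-high tumours, against 22.4 to 234 CPM (median 58.0) in Mycn-low tumours (-1.02 ± 0.23, edgeR adjusted p = 0.00196). S100b, a calcium-binding protein of astrocytes, ranged from 19.3 to 118 CPM (median 51.9) in Mycn-high tumours, against 25.5 to 370 CPM (median 128) in Mycn-low tumours (-1.25 ± 0.22, edgeR adjusted p = 0.000711). No Mycn-high tumour exceeded the Mycn-low median of S100b. All 13 astrocyte genes kept a negative sign with the oligodendrocyte level held (median -0.37), though none passed the test there. The other non-neuronal lists held fewer calls. Of 19 microglia and macrophage genes 6 (31.6%) were lower and 0 higher (median -0.35), among them Cx3cr1 (-0.70 ± 0.19) and Csf1r (-0.42 ± 0.13). Of 12 endothelial genes Slco1a4 and Flt1 were lower (list median 0.03), a share of 16.7%, near the 12.6% of all genes. Of 15 pericyte and fibroblast genes Kcnj8, Abcc9 and Pdgfra were higher (20.0%, list median 0.02), beside 6.68% of all genes. Abcc9 lost its call in 23 of the 40 fits that leave out 1 tumour. Of 29 potassium channel genes, the subject of the series title, 17 (58.6%) were lower and 0 higher (median -0.76). That median was -0.22 with the oligodendrocyte level held and 0.02 with it held in the 39 tumours other than no tamoxifen replicate 16. Leaving out 1 tumour at a time, with no such covariate, gave 14 to 19 lower channel genes. Kcnb2 itself had 7.08 CPM in Mycn-high and 6.54 CPM in Mycn-low tumours at the median (0.22 ± 0.15, edgeR adjusted p = 0.307).

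The genes with the smallest p were of several kinds, and no shared theme was tested. Among those higher, Zfp12 and Zbtb44, both zinc finger proteins, rose by 0.31 ± 0.05 and 0.24 ± 0.05. Ier5, a growth and stress response gene, ranged from 253 to 525 CPM (median 386) in Mycn-high tumours, against 95.1 to 379 CPM (median 260) in Mycn-low tumours (0.58 ± 0.11, edgeR adjusted p = 0.000986). Of the Mycn-high tumours 13 of 20 lay above every Mycn-low tumour. Also higher were the further zinc finger genes Patz1 (0.27), Zmynd19 (0.27), Zfp553 (0.30) and Zfp260 (0.27). So were the nuclear pore gene Seh1l (0.28), Paxip1 (0.25) and the thrombin receptor gene F2r (0.39). Among the lower genes, the calcium channel gene Trpm2 ranged from 0.930 to 4.90 CPM (median 2.39) in Mycn-high tumours, against 2.88 to 22.9 CPM (median 5.27) in Mycn-low tumours (-1.45 ± 0.22, edgeR adjusted p = 0.000469). Of the Mycn-high tumours 13 of 20 lay below every Mycn-low tumour. Spon1, a secreted axon guidance protein, ranged from 20.1 to 59.5 CPM (median 34.8) in Mycn-high tumours, against 29.7 to 113 CPM (median 69.9) in Mycn-low tumours (-0.80 ± 0.12, edgeR adjusted p = 0.000469). Plekhf1 (-1.47), Rcan2 (-1.79), Agbl2 (-2.62), Sdc4 (-1.26), Ephx1 (-0.55), Pltp (-0.64), Usp2 (-1.63) and Aifm3 (-2.49) were lower as well. The largest further increase was in Mgp (1.14 ± 0.42), a call lost in 20 of the 40 fits that leave out 1 tumour. Samd9l followed at 0.90 ± 0.24, and the largest fall was in Snhg11, a long non-coding RNA of neurons, at -3.45 ± 0.65.

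A small group of genes was called whether or not the oligodendrocyte level was held, and was chosen after these values were seen. With the level held, 25 genes passed in 40 tumours, and 41 genes passed in the 39 tumours without no tamoxifen replicate 16 (1 higher, 0.00715%, and 40 lower, 0.286%). The 18 genes called in both were Zfp12, which was higher, and 17 genes that were lower in Mycn-high tumours. Several of the 17 are known as genes of reactive glia or inflammation: Osmr, the oncostatin M receptor, Ptx3, a pentraxin, Steap4, a metalloreductase, Chil1, a chitinase-like protein, Nfkbiz and Ikbke, of NF-kappa-B signalling, Icam1, an adhesion molecule, C1s1, a complement protease, and Gbp2b, a guanylate-binding protein. The astrocyte, microglia and interferon lists had 0 calls in either fit. The others of the 17 were Tgm2, Scara5, Spon1, Ephx1, Epas1, Tgfbr2, Dnaic2 and Tex15. Among these, Icam1 lost its call without the covariate in 17 of the 40 fits that leave out 1 tumour, Tgfbr2 in 13 and Epas1 in 1 (without tamoxifen replicate 5).

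Tgm2, tissue transglutaminase, ranged from 8.01 to 25.5 CPM (median 14.9) in Mycn-high tumours, against 11.1 to 52.3 CPM (median 23.4) in Mycn-low tumours. Its log2 fold change was -0.74 ± 0.16 in 40 tumours (edgeR adjusted p = 0.00169), -1.0 ± 0.16 with the level held (adjusted p = 0.00433) and -1.03 ± 0.17 in 39 tumours (adjusted p = 0.00350). Osmr ranged from 4.62 to 18.7 CPM (median 10.9) in Mycn-high tumours, against 6.18 to 65.9 CPM (median 12.9) in Mycn-low tumours. The fold change of Osmr was -0.79 ± 0.23 (adjusted p = 0.0143) and -1.18 ± 0.22 in 39 tumours with the level held (edgeR adjusted p = 0.0150). Ptx3 had 0.341 to 5.44 CPM (median 1.78) in Mycn-high tumours, against 0.464 to 35.2 CPM (median 4.02) in Mycn-low tumours (-1.46 ± 0.36, and -1.87 ± 0.38 in 39 tumours). In these genes the Mycn-high tumours span the narrower range, and the Mycn-low tumours reach higher and overlap them. The highest Osmr values were those of no tamoxifen replicate 8 (65.9 CPM), tamoxifen replicate 5 (41.1 CPM) and tamoxifen replicate 3. Every other Mycn-low tumour had at most 20.7 CPM of Osmr. Tamoxifen replicate 5 and no tamoxifen replicate 8 also had the highest Tgm2. Leaving out 1 tumour at a time, without the covariate, kept the calls of Osmr and Tgm2. No fit left out all of these tumours together.

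Tumours of low oligodendrocyte level were also compared by themselves. In 16 Mycn-high against 5 Mycn-low such tumours, 0 of 14781 genes were higher and 5 (0.0338%) were lower: Tgm2, Nrp2, Ccl12, Arl4c and Scara5. Of these, Tgm2 and Scara5 are among the 18 genes above. Tgm2 had 8.01 to 25.5 CPM (median 15.9) in the Mycn-high tumours, against 20.1 to 52.3 CPM (median 35.0) in the Mycn-low tumours (-1.27 ± 0.21, edgeR adjusted p = 0.0236). The receptor gene Nrp2 had 7.55 to 16.9 CPM (median 12.6) in the Mycn-high tumours, against 16.2 to 34.1 CPM (median 29.0) in the Mycn-low tumours, and the ranges hardly overlap (-1.0 ± 0.16, adjusted p = 0.0236). Scara5, a ferritin receptor, had 0.133 to 2.34 CPM (median 0.920) in the Mycn-high tumours, against 0.462 to 11.0 CPM (median 3.00) in the Mycn-low tumours (-2.74 ± 0.50, edgeR adjusted p = 0.0443). Of the 5 Mycn-low tumours 4 came from the group without tamoxifen. Osmr differed by -1.55 ± 0.30 there and did not pass (adjusted p = 0.0709).

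**Figure D5:**
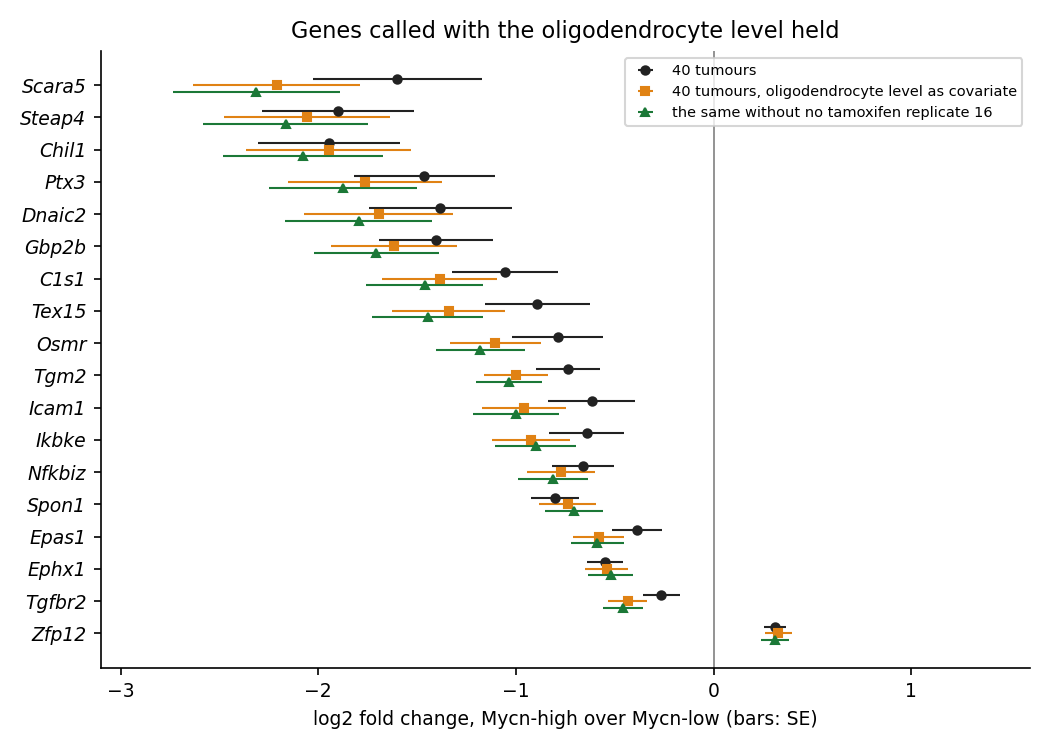
Log2 fold change, Mycn-high over Mycn-low (x axis, bars are SE), of the 18 genes called with the oligodendrocyte level held in both 40 and 39 tumours (y axis), in 3 fits. Zfp12 lies right of 0 and the other 17 genes left of it in each fit.

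Genes reported as repressed by MYC proteins form a list of 8. Of these, 5 were lower and 0 higher, beside 12.6% and 6.68% of all genes. The list median was -0.82, and -0.53 with the oligodendrocyte level held. Ndrg1, a stress-induced gene named for its repression by MYCN, ranged from 2.38 to 33.8 CPM (median 6.18) in Mycn-high tumours, against 6.11 to 71.1 CPM (median 14.8) in Mycn-low tumours (-1.29 ± 0.24, edgeR adjusted p = 0.000884). Of the Mycn-high tumours 9 of 20 lay below every Mycn-low tumour. Clu, Ndrg2 and Ndrg4 fell by 1.02 ± 0.20, 0.90 ± 0.19 and 1.49 ± 0.35. Astrocytes express Clu and Ndrg2 and neurons express Ndrg4, and the astrocyte and neuron lists above were lower too. With the level held only Tgm2 of this list passed. Cdkn1a, encoding p21, had 28.7 to 139 CPM (median 57.2) in Mycn-high tumours, against 23.3 to 443 CPM (median 88.1) in Mycn-low tumours, and its difference of -0.73 ± 0.28 did not pass (edgeR adjusted p = 0.0616).

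Of 15 immediate early genes tested 4 were lower (Fos, Junb, Nr4a1 and Npas4) and Egr2 was higher, beside 12.6% and 6.68% of all genes, with a list median of -0.38, and 12 of the 40 fits that leave out 1 tumour lost the call of Egr2. Fos ranged from 1.36 to 7.93 CPM (median 3.57) in Mycn-high tumours, against 2.97 to 33.1 CPM (median 5.82) in Mycn-low tumours (-1.32 ± 0.30, edgeR adjusted p = 0.00224). The highest value was that of no tamoxifen replicate 16, and Npas4 lost its call without that tumour. Of 20 hypoxia and glycolysis genes Ndrg1, Hk1 and Slc2a1 were lower and Ldha was higher (median -0.08), and 5 were lower without no tamoxifen replicate 21 or tamoxifen replicate 12 or 18. Slc2a1 lost its call in 11 of the 40 fits that leave out 1 tumour. Of 12 interferon-stimulated genes Cxcl10 and Stat2 were lower (median -0.13), a share of 16.7% beside 12.6% of all genes. Within tamoxifen tumours the interferon list had a median of 0.08, with 8 of 12 positive. Without tamoxifen its median was -0.46, with 0 of 9 positive. With the oligodendrocyte level held in 40 tumours it was -0.35, with 0 of 12 positive.

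The direction of the called genes was then read in libraries that the groups did not use. In the 19 middle tumours a slope on log2 Mycn CPM, with treatment as covariate, passed for 2 of 13573 genes (0.0147%), P2rx3 and Slc1a5 (edgeR quasi-likelihood test, 1800 at an unadjusted p under 0.05; DESeq2 called 26, with 1355). Both were positive, and the slope of Slc1a5 was 5.83 ± 0.92 log2 units per log2 unit of Mycn. Of 932 genes called higher above, 679 (72.9%) had a positive slope there, beside 51.7% of all genes. Of 1618 genes called lower, 1336 had a negative slope. Markers of normal cerebellum had negative slopes there as well, none past the threshold. These were 8 of 8 oligodendrocyte, 8 of 8 Purkinje cell and 20 of 20 late granule neuron genes tested, with medians of -6.44, -18.8 and -9.66, and their part in these shares was not tested. Mycn spans only 316 to 353 CPM in the middle tumours with tamoxifen and 351 to 402 CPM in those without. Treatment was a covariate, so slopes per log2 unit of Mycn reach well beyond the range that these tumours cover.

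The 10 SmoM2 tumours had 176 to 324 CPM of Mycn. They comprise 3 labelled Kcnb2 knockout and 7 labelled Kcnb2 wild-type, with 23923453 to 39387125 counts each, and genotype was a covariate. The library labelled wild-type replicate 3 carries the title ending of the knockouts. Its counts are named without that ending, and were matched to it as the only candidate. This library had 8.44 CPM of Kcnb2, beside 10.0 to 13.7 CPM in the 3 labelled knockout and 22.5 to 47.0 CPM in the other 6 labelled wild-type. It also had the lowest Mycn of the 10, 176 CPM, so slopes are given with and without it. No gene of 19863 passed (edgeR quasi-likelihood test, 492 at an unadjusted p under 0.05; 0 and 826 without the covariate; 0 of 19737 and 1464 without the library labelled wild-type replicate 3). Of 914 genes called higher above, 736 (80.5%) had a positive slope, beside 51.0% of all genes, and of 1738 called lower, 1483 had a negative slope. Without that library the counts were 697 of 914 (76.3%), beside 49.7% of all genes, and 1480 of 1738. All 24 G1/S genes and 25 of 30 replication genes had positive slopes, and 24 and 30 without it. Msi1 had the slope 0.82 ± 0.16 and Pcna 0.57 ± 0.23, and 0.62 ± 0.29 and 0.99 ± 0.42 without that library. All 11 oligodendrocyte, 11 Purkinje cell and 20 late granule neuron genes had negative slopes, with medians of -3.78, -1.29 and -0.84 (-6.54, -2.88 and -2.47 without that library), and the part of these cells in the shares above was not tested. Tgm2, Osmr and Spon1 had slopes of -0.11 ± 0.96, 0.36 ± 0.66 and -0.15 ± 0.22 in the 10 SmoM2 tumours, each within its error of 0, and -0.81 ± 1.86, 1.89 ± 1.30 and 0.0034 ± 0.42 without that library.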

How the data were processed

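Per the labels' protocols, polyA RNA of bulk tumour came from an RNeasy extraction and was turned into TruSeq RNA libraries. The authors deposited raw whole-number counts for each gene, in 1 table per model. STAR 2.5.4b and mm9 are named in the submitters' processing notes without their role. Not given in the sources used here are the counting program, its annotation and its use of strand. Antisense and near-identical genes may therefore share reads. The 10 rows of the Lazy Piggy table that name transposon parts (0.00120% of counts) stayed out of totals and tests. Symbols from GENCODE M21 matched 32882 of 37964 rows, with 99.3% of counts. No library pair of the 780 among the 40 tumours was alike within sampling noise (chi-square per degree of freedom at least 8.89 over 11292 genes that averaged at least 50 counts).

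CPM is a count over the library total, times 1e6. Genes were tested with edgeR 4.0.16 in R 4.3.3 (TMM, filterByExpr with a smallest count of 10, quasi-likelihood test, treatment as covariate, Benjamini-Hochberg, threshold 0.05), with Mycn removed. DESeq2 1.42.0 was an alternative. An SE is the absolute log2 fold change over the square root of F. A list's level is its genes' mean log2 CPM. Sex was read from Ddx3y, Uty, Kdm5d and Eif2s3y, summed above 10 CPM for males.

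The groups, gene lists and tests were chosen with earlier results of these data known. Lists are described by counts and medians and were not tested. Named genes were, among called genes that averaged 1 log2 CPM or more, the 10 higher and 10 lower of smallest p, 5 further of largest change each way, up to 4 per list, and all measured MYC partners and Mycn neighbours. Some genes that meet this rule are not reported here. Other genes named were chosen after their values were seen. Fits with the oligodendrocyte level in 39 tumours, and those without 5, 18 or 19 tumours, were added after seeing the data. The fits were also tested on simulated data. The promoter table (RefSeq, GRCm38.p6) gave sequences only.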

Additional observations from a re-analysis of the deposited data

How the results depend on the processing

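Both counts, 934 genes higher and 1766 lower, stayed within 1.5 times of these values under DESeq2, RLE scaling, no low-count filter, sex or title period as covariate, groups of 5, a split at each treatment's median and ranking on TMM-scaled Mycn. The genes called were not all the same. Groups of 5 shared 509 of the higher and 1275 of the lower genes, the median split 684 and 1539, and no low-count filter 688 and 1449. Library totals alone gave 462 higher. The slope over 59 tumours gave 3242 higher (23.2%) and 3321 lower (23.8%). It includes tamoxifen replicate 14, whose Mycn of 46.8 CPM lies far below the next lowest, 211 CPM. That slope was not fitted without this tumour. Tamoxifen tumours alone gave 20 higher and 138 lower, tumours without tamoxifen 11 and 143, tumours other than the 5 of highest oligodendrocyte level 379 and 936, and those other than the highest 18 gave 0 and 3. The level as covariate gave 1 higher and 24 lower, with it in 39 tumours 1 and 40, and the 21 tumours of low level 0 and 5. Leaving out each tumour gave 657 to 1110 higher and 1488 to 1941 lower, and 133 of 151 called named genes kept their call throughout. DESeq2 called 26 genes in the middle tumours. Totals of 5869618 to 8667344 counts limit what can be called among genes of low CPM. No paired analysis was possible because the replicate numbers were given in accession order and pair nothing. Among named genes some log2 fold changes took the opposite sign of the main one, and the cause was not tested. With the oligodendrocyte level as covariate these were Calb1 0.043, Mxd4 -0.0015, Mga -0.021, Mlxip -0.12, Trim32 0.19, Rdh14 0.088, Id4 0.18, Itpr1 0.030 and Car8 0.019. With it in 39 tumours they were Fbxw7 0.070, Mga -0.038, Mlxip -0.15, Zbtb17 -0.028, Huwe1 -0.0077, Usp7 -0.022, Trim32 0.33, Smc6 -0.011, Gen1 -0.017, Rdh14 0.10, Id4 0.043, Ermn 0.036 and Hk1 0.0083. Without the 18 tumours of highest level they were Calb1 0.67, Mxd4 -0.12, Mga -0.047, Mlxip -0.14, Huwe1 -0.041, Trim32 0.22, Rdh14 0.016, Id4 0.61, Car8 0.12, Rgs8 0.053, Gad1 0.12, Gad2 0.20 and Kl 0.92. In the 21 tumours of low level they were Calb1 0.43, Ppp1r17 0.069, Fbxw7 0.074, Mycl -0.13, Mxd1 -0.010, Mxd4 -0.076, Mga -0.063, Mlxip -0.16, Zbtb17 -0.0062, Huwe1 -0.060, Usp7 -0.0036, Trim32 0.45, Rdh14 0.0051, Id4 0.42, Kdm3a -0.064, Rgs8 0.11, Gad2 1.06, Kl 0.90 and Hk1 0.059. Within tamoxifen tumours they were Mxd4 -0.0027, Zbtb17 -0.0043 and Zfp575 0.11. Among tumours without tamoxifen they were Mga -0.046, Mlx -0.028, Huwe1 -0.073, Trim32 0.022, Rdh14 0.067 and Lpin1 0.016. Without the 5 tumours of highest level they were Mlxip -0.028 and Trim32 0.070. Groups of 5 gave Mlxip -0.014, the slope over 59 tumours gave Mxd4 -0.014, and leaving out each tumour moved Mxd4 between -0.0047 (without no tamoxifen replicate 18) and 0.091.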

Other observations

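Other gene groups of medulloblastoma biology held few calls. Of 26 chromatin regulators that are recurrently altered in medulloblastoma, Arid2, Arid1a and Kdm3a were higher in Mycn-high tumours and 0 were lower (median 0.17), beside 6.68% and 12.6% of all genes, and the count of higher genes was 0 without tamoxifen replicate 14 and 1 without any of 13 other tumours. Arid2 differed by 0.22 ± 0.07 (edgeR adjusted p = 0.0309) and lost its call without tamoxifen replicate 14, Arid1a differed by 0.23 ± 0.08 and lost it in 20 of the 40 fits that leave out 1 tumour, and Kdm3a differed by 0.26 ± 0.10 and lost it in 24. Of 22 genes of insulin-like growth factor and PI3K signalling, Pik3r1, the regulatory subunit of PI3K, was lower by 0.32 ± 0.06 (edgeR adjusted p = 0.000898). It ranged from 95.2 to 149 CPM (median 122) in Mycn-high tumours, against 121 to 195 CPM (median 149) in Mycn-low tumours. Of 19 Notch and BMP genes Id4 was lower by 1.51 ± 0.38, with a fold change of 0.18 once the oligodendrocyte level was held. Of 3 choroid plexus genes Kl was lower, and the call was lost without no tamoxifen replicate 6. Of 4 red cell genes 0 passed (median -0.70), and 1 gene of T and NK cells was tested and did not pass.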
